A study of Mus musculus with 2 samples.

Results

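The cells described here were gated as smooth muscle cells and pericytes in 2 dissociated mouse lungs profiled by droplet single-cell RNA sequencing. They were chosen by their own transcripts, counted as unique molecular identifiers (UMIs) per 10,000 UMIs of the cell. A cell entered the Acta2-high gate when Acta2, Tagln, Myh11 and Cnn1 summed to at least 25 per 10,000, and the pericyte gate when it did not and Cox4i2, Postn, Pdgfrb and Higd1b summed to at least 12. Cells with 3 or more per 10,000 of the endothelial genes Cldn5 and Cdh5, 8 or more of the fibroblast genes Inmt, Tcf21, Clec3b and Pi16, or 4 or more of the carcinoma genes Cdkn2a, Twist1 and Hmga2 were left out. Of 5506 cells with 1000 to 7000 genes and at most 10% mitochondrial UMIs, 74 met the rule, 70 of them in the Acta2-high gate and 4 in the pericyte gate.

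The study asked how the lung changes as metastases grow out. Female FVB/NJ mice, 10 weeks old at injection, received Met-1 mouse mammary carcinoma cells through the tail vein, which carries the cells to the lung without a primary tumor. The low-burden lung was taken at week 1 and the high-burden lung at week 3, with 1 mouse and 1 library for each and no lung without tumor cells among the samples used here. Both libraries carry the same batch label, and burden, time after injection and the individual mouse cannot be told apart.

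Smooth muscle cells wrap airways, arteries and veins and contract through actin and myosin filaments. Pericytes sit in the basement membrane of capillaries, touch the endothelium directly, and are known for PDGF receptor beta, Notch3 and, in the lung, for the mitochondrial subunit Cox4i2 and the hypoxia-related protein Higd1b. Together they are called mural cells, and their contractile program depends on serum response factor, which binds the CArG box in promoters of muscle genes.

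The libraries held 2668 cells (low burden) and 3121 cells (high burden), and the 2473 and 3033 cells kept had medians of 4073 and 13998 UMIs. The libraries shared 11 barcodes, none of them in a member cell. Doublets were kept. The doublet caller Scrublet marked 1.70% of the kept cells at low burden and 0.297% at high burden, too few to count as a working call for the latter, and none of the members. As a measure of RNA carried by cells of another type, values are given beside those of a lymphocyte gate of 124 and 54 cells with medians of 3627 and 6722 UMIs. That gate cannot measure carried RNA for a gene that lymphocytes transcribe themselves. In that gate, 1 cell of each library itself passed the Acta2-high sum. With 1 library per group no test between groups was possible, and all intervals are 95% intervals of counting error alone.

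The Acta2-high sum was reached by 89 low-burden and 17 high-burden cells. At low burden 19 of them were over the endothelial limit and 17 over the fibroblast limit, some over both. At high burden 2 were over the carcinoma limit and 0 over the other limits. That left 55 Acta2-high cells in the low-burden lung and 15 in the high-burden lung. Their share of the kept cells was 2.22% (1.68 to 2.89%, exact binomial) in the former and 0.495% (0.277 to 0.814%) in the latter. Counted over cells under the carcinoma limit alone, 2440 and 1573 cells, the shares were 2.25% and 0.954%. Alveolar fibroblasts, gated on Inmt and Tcf21 with a sum of at least 8 per 10,000, went from 13.7% to 3.88% of those cells. The intervals of the Acta2-high shares did not overlap on either denominator, but a share over 1 dissociated lung carries no error between mice. The endothelial limit also depended on depth. A single Cldn5 or Cdh5 UMI would have reached it in 8 of 56 low-burden and 0 of 18 high-burden members of the gates.

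The pericyte gate was almost empty. It held 1 low-burden cell, 0.0404% of kept cells (0.00102 to 0.225%), and 3 high-burden cells, 0.0989% (0.0204 to 0.289%). Another 10 Acta2-high cells of the low-burden lung and 4 of the high-burden lung passed both sums and stayed in the Acta2-high gate. Among cells under all 3 limits, the lowest Acta2-high sum inside was 38.7 per 10,000 at low and 31.6 at high burden, and the highest outside was 15.1 and 23.6. The lowest pericyte sum that passed was 12.2 and 15.3 per 10,000, and the highest of a cell in neither gate was 5.59 and 10.2.

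**Figure D1:**
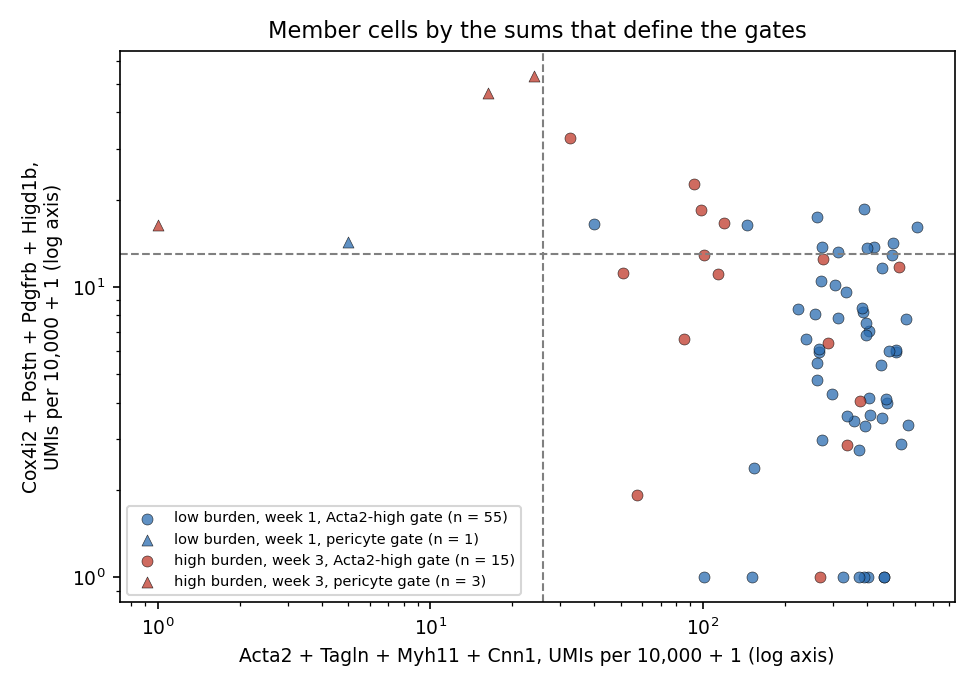
Each point is 1 member cell, placed by its Acta2-high sum (x axis) and its pericyte sum (y axis), both as UMIs per 10,000 plus 1 on log axes, with dashed lines at the limits of 25 and 12. Low-burden circles crowd at the right, whereas the 15 high-burden circles run from 31.6 per 10,000 upward and the 4 triangles of the pericyte gate lie left of the line.

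The genes of the rule describe what was gated. Acta2, smooth muscle actin (chr19:34241090-34255590, minus strand, mm10), gave 6775 UMIs in the low-burden Acta2-high cells and 1889 in the high-burden ones, 21791 and 9327 counts per 1000000 UMIs (CPM). Per cell it ran from 25.8 to 387 per 10,000 with a median of 226 at low burden, and from 1.85 to 363 with a median of 83.6 at high burden. In the lymphocyte gate 11.3% and 11.1% of cells had an Acta2 UMI, against all 70 Acta2-high cells.

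Tagln, the actin-binding protein transgelin (chr9:45929619-45936058), had medians of 110 and 35.6 per 10,000. Myh11, smooth muscle myosin heavy chain (chr16:14194535-14291372), had 671 and 85 UMIs, and its per-cell median went from 20.9 to 2.09 per 10,000. Cnn1, calponin, had 481 and 82 UMIs, with medians of 15.1 and 3.70. These levels chose the cells, so they carry no finding about the libraries. As a description of the gate, Myh11 and Cnn1 together reached 10 per 10,000 in 52 of 55 low-burden cells and in 5 of 15 high-burden cells. For the 3 low-burden and 10 high-burden cells under that level, the smooth muscle name is used for the rule alone.

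Markers that did not enter the rule checked the name. Against the alveolar fibroblast gate of the same library (334 and 61 cells), 29 of 31 contractile genes past the filter on low counts were at least 2-fold higher in the low-burden Acta2-high cells, where 7.96% of 4875 genes tested were. At high burden 17 of 23 were, beside 10.7% of 2019 genes. Actg2, the enteric smooth muscle actin, had 456 UMIs in 55 Acta2-high cells and 6 in 334 fibroblasts at low burden (log2 ratio 8.62), and 187 and 2 UMIs at high burden (7.91). The filter asked for 50 UMIs over both groups and a UMI in 10% of the cells of either. Since these cells were gated on actin and myosin genes, this describes the gate and is no independent result.

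Across the 15 high-burden Acta2-high cells the smooth muscle genes were split unevenly. Cells 1 to 4 and cell 6, numbered by falling Acta2-high sum, had 10 to 20 Myh11 UMIs, 4 to 19 Cnn1 UMIs and 0 to 3 Col1a1 UMIs in libraries of 5413 to 6573 UMIs. Cell 5 had 220 Acta2 UMIs with 6 of Myh11, 27 of Col4a1 and 14 of Col1a1. Cells 7 to 14 had 0 to 6 Myh11 UMIs, and among them cell 7 had 97 of Col1a1 and cell 12 had 119.

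Cell 13 passed on 55 Tagln UMIs with 2 of Acta2. Cell 15, the last inside the gate, had 18 Acta2 UMIs together with 14 of Higd1b and 11 of Rgs5, and 0 of Myh11 and Cnn1. Cell 12 carried 57112 UMIs, 28.2% of the high-burden sum, so list counts without it are given beside those it changes.

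Summed over the Acta2-high cells, which held 310904 UMIs in the first library and 202526 in the second, 1527 genes passed the filter. A gene with fewer than 50 UMIs in 1 library needed the other library to pass, which favors genes high in that other library. At high burden 209 of them (13.7%) were at least 2-fold higher and 272 (17.8%) at least 2-fold lower, and the median log2 ratio of all genes was 0.07. All ratios are of CPM, high over low burden.

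Summed over all Acta2-high cells, contractile genes were lower at high burden. Of 35 listed genes 31 passed the filter, 22 were at least 2-fold lower, none was 2-fold higher, and their median log2 ratio was -1.48. They belong to the program of the gate genes, whose levels chose the cells, so this describes the gated cells. In cells with at least 10 per 10,000 of Myh11 and Cnn1, described further on, 28 of 31 were within 2-fold (median -0.21). Tpm2, a tropomyosin, gave 1914 and 412 UMIs in the same order (-1.60, interval -1.75 to -1.44). Per cell its median went from 60.1 to 15.7 per 10,000, and the ranges, 7.75 to 127 and 4.74 to 90.1, overlapped. Myl9, the regulatory myosin light chain (chr2:156775420-156781658), had 1908 and 343 UMIs (-1.86, -2.03 to -1.69), with per-cell medians of 65.3 and 12.8. Myl6, the essential light chain, went from 2819 to 682 UMIs (-1.43).

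Lmod1, leiomodin, which nucleates smooth muscle actin filaments, had 214 and 37 UMIs (-1.91, -2.46 to -1.41). Synpo2, an actin-bundling protein of the Z-disc, had 124 UMIs in 41 of 55 cells and 10 UMIs in 5 of 15 (-3.01, -4.11 to -2.09). Hspb1, a small heat shock protein that binds actin, had 1134 and 123 UMIs (-2.59), and Itga8, an integrin subunit of mural cells and myofibroblasts, had 227 and 32 (-2.21). Ckb, the brain creatine kinase that smooth muscle also uses, had 252 and 32 (-2.36).

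The difference was not uniform over the list. Cald1, caldesmon, had 448 and 352 UMIs (0.27, 0.06 to 0.48), Cnn2, the calponin also made outside muscle, 96 and 86 (0.46), and Mylk, myosin light chain kinase, 268 and 148 (-0.24, -0.54 to 0.06). Actg2 (-0.67) and the intermediate filament gene Des (602 and 197 UMIs, -0.99) fell short of 2-fold. Caldesmon and the kinase thus stood near their low-burden levels in cells where Tpm2 went from 6156 to 2034 CPM.

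The CArG box, a 10-base element read by serum response factor, was looked for in the RefSeq promoters (GRCm38.p6, 250 bases before to 50 after each start). The box is its own reverse complement in form, so 1 search covers both strands. It stood in 535 of 32851 promoters (1.63%). Of 40 genes, the contractile list with the gate genes and Actc1, 35 had promoters in the table, and 7 of their 40 promoters (17.5%), from 6 genes, held it. The windows of Acta2, Cnn1 and Lmod1 did not, which says only that these letters are not in this window. The stretches around the boxes of 5 genes are shown because the genes moved differently, with capitals marking the box.

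Myl9: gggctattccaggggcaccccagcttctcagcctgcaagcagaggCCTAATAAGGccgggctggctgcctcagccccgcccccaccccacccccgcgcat
Actc1: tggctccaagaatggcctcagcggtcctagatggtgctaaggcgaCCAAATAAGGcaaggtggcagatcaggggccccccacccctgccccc
Myl6: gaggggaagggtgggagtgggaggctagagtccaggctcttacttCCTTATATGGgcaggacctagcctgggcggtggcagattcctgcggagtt
Vcl: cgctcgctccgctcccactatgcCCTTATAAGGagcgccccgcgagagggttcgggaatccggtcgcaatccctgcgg
Cnn2: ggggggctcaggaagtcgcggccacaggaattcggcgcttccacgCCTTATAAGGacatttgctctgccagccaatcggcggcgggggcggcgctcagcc

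The Myl9 stretch lies at chr2:156775258-156775357 on the plus strand, that of Actc1 at chr2:114052876-114052967 on the minus strand, that of Myl6 at chr10:128493010-128493104 on the minus strand, that of Vcl at chr14:20929148-20929225 on the plus strand and that of Cnn2 at chr10:79988499-79988598 on the plus strand. The boxes begin 161, 47, 50, 227 and 56 bases before the start site in that order. Of these genes, Actc1, Myl9, Myl6 and Vcl, the focal adhesion protein vinculin (-1.08), were at least 2-fold lower at high burden and Cnn2 was not.

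**Figure D2:**
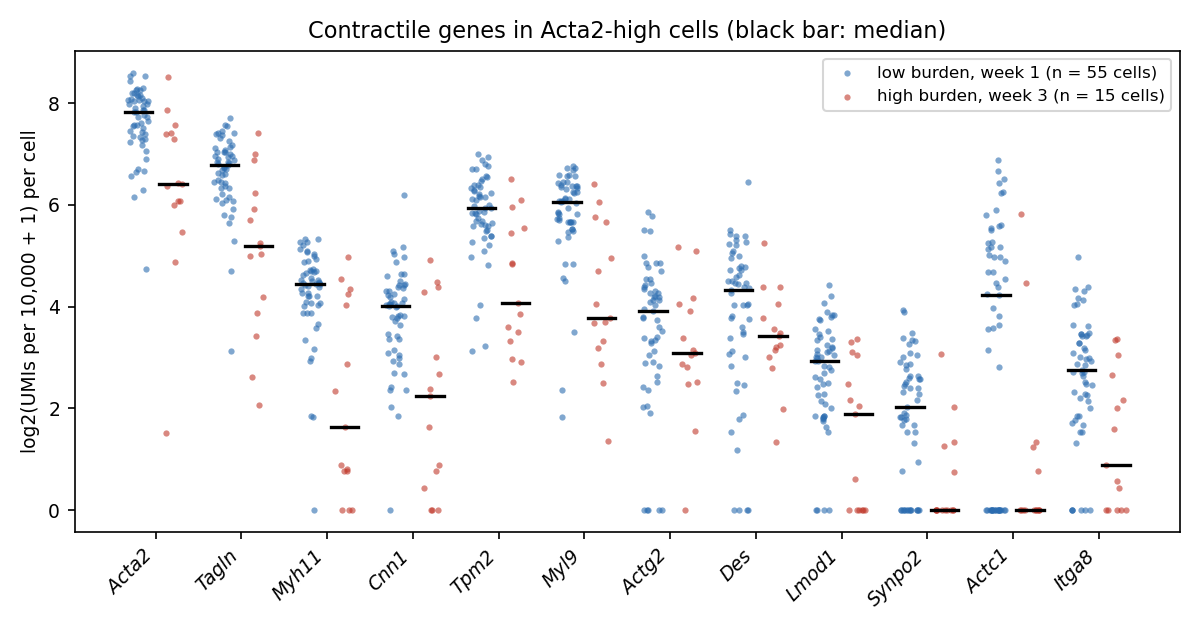
Each point is 1 Acta2-high cell, with log2 of UMIs per 10,000 plus 1 on the y axis and 12 contractile genes on the x axis, and black bars mark the median of 55 low-burden and 15 high-burden cells. The high-burden medians are lower for each of the 12 genes, and the highest high-burden cells reach into the low-burden range.

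Summed over all Acta2-high cells, genes of airway and of vascular smooth muscle were both lower at high burden. Actc1, cardiac actin, which lung smooth muscle also transcribes (chr2:114047282-114053548), had 679 UMIs in 35 of 55 low-burden cells and 46 UMIs in 5 of 15 high-burden cells, 30 of them in 1 cell (log2 -3.27, -3.73 to -2.83). Thinned to 3000 UMIs per cell, which dropped 2 low-burden cells, Actc1 was seen in 64.2% of low-burden and 13.3% of high-burden cells. Aspn, asporin, a small matrix proteoglycan, had 181 and 18 UMIs (-2.71), and Lgr6, a receptor of airway smooth muscle, 38 UMIs in 24 cells and 4 UMIs in 3. The 4 genes of the airway and alveolar-duct list past the filter were all 2-fold lower (median -2.37), and without cell 12 there were 3. In the cells restricted by Myh11 and Cnn1, described further on, 3 genes of this list passed the filter. None of these was 2-fold lower and 1 was 2-fold higher (median -0.17).

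Of 6 vascular genes past the filter, 5 were 2-fold lower (median -1.23). This rested in part on cell 12, without which 2 of 5 were lower (median -0.82), and in cells with at least 10 per 10,000 of Myh11 and Cnn1, described further on, 1 of 5 was lower and 1 higher. Sost, the Wnt inhibitor sclerostin (chr11:101962458-101967015), had 71 UMIs in 18 low-burden cells and 0 in the high-burden cells, which at a limit of 3 counts is a log2 ratio of -3.95 or lower. Eln, elastin, the elastic protein of vessel walls, had 240 and 67 UMIs (-1.22, and -0.77 without cell 12). Aoc3, an amine oxidase of smooth muscle surfaces, had 51 and 15 (-1.15, and -0.67 without it). Tnnt2, the only gene of the pulmonary-vein cardiac muscle list past the filter, had 14 and 40 UMIs (2.13), 72.5% of the latter in 1 cell, and was under the filter without cell 12.

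Of 30 pericyte genes in the files 9 passed the filter, with 2 higher by 2-fold and 3 lower (median -0.40). Rgs5, a brake on G-protein signaling and the classic pericyte gene (chr1:169655501-169695813), had 14 UMIs in 6 of 55 low-burden cells and 71 in 6 of 15 high-burden cells (2.96, 2.12 to 3.90), with 57.7% of the latter in cell 11 and a ratio of 1.82 without it. Thinned, the shares were 7.55% and 26.7%, and no lymphocyte-gate cell had an Rgs5 UMI. Ndufa4l2, a mitochondrial protein of hypoxic cells and pericytes, also had 14 and 71 UMIs. Like Rgs5, it could pass the filter only through the high-burden cells. Both subunits of soluble guanylate cyclase, the nitric oxide receptor, were lower, Gucy1a3 with 68 and 15 UMIs (-1.56) and Gucy1b3 with 68 and 11 (-2.01). Notch3, which mural cells need for arterial identity, had 65 and 32 (-0.40, -1.06 to 0.23). All 3 Notch pathway genes past the filter stayed within 2-fold (median -0.40).

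Of 12 TGF-beta and BMP pathway genes, 8 were 2-fold lower and none higher (median -1.39), and without cell 12 it was 6 of 11. Ctgf, a matricellular target of TGF-beta, had 846 and 158 UMIs (-1.80), and Id1 and Id2, BMP-induced repressors, had 83 and 17 (-1.67) and 135 and 16 (-2.46). Id3, of the same family, had 220 and 223 UMIs (0.64, 0.36 to 0.91) and moved the other way. Among PDGF ligands only Pdgfa passed, with 43 and 70 UMIs (1.32, 0.75 to 1.90), 51.4% of the latter in cell 12, without which the ratio was within 2-fold (0.76).

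Of 11 genes of vascular tone, 6 were 2-fold lower and 1, Rgs5, higher (median -1.09), and without cell 12 it was 5 and 1 of 10. In the cells restricted by Myh11 and Cnn1, described further on, 3 of 8 were lower and none higher. Their median there was -0.015, with 4 above 0 and 4 below, and Rgs2 stood at 0.016. Summed over all Acta2-high cells, Ramp1, a subunit of the CGRP receptor, had 132 and 15 UMIs (-2.52). Rgs2, which damps constrictor signals, had 105 and 18 (-1.93), and Rock1, a kinase that sustains contraction, 190 and 41 (-1.59). Rhoa, the small GTPase that activates Rock1, had 140 and 115 (0.33, -0.03 to 0.70). Among transcription factors past the filter, 2 of 8 were lower, Klf2 and Klf4 (-1.12 and -1.33), and 1 higher, the mesenchymal factor Prrx1 with 23 and 34 UMIs (1.18). Without cell 12 none of 7 was past 2-fold in either direction. Myocd, the muscle coactivator of serum response factor, was under the filter with 10 UMIs in 10 of 55 low-burden cells and 0 in 15 high-burden cells.

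Matrix genes parted by kind. Of 21 interstitial matrix genes 10 were at least 2-fold higher and 4 lower (median 0.71), and without cell 12 it was 8 and 3 of 19. In the cells with at least 10 per 10,000 of Myh11 and Cnn1 it was 2 and 1 of 13 (median 0.38). Col1a1, the main chain of type I collagen, had 57 UMIs in 31 of 55 cells and 342 in 11 of 15 (3.20, 2.80 to 3.63), with per-cell medians of 1.58 and 8.37 per 10,000. Thinned, 39.6% and 66.7% of cells had a Col1a1 UMI, and 6.45% and 5.56% of lymphocyte-gate cells had one unthinned. In the alveolar fibroblast gate Col1a1 went from 653 to 332 CPM, whereas in the Acta2-high cells it went from 183 to 1689. The difference between these changes was not tested.

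Col1a2 (166 and 349 UMIs, 1.69), the type VI chain Col6a3 (21 and 99, 2.86), the type VIII chain Col8a1 of vessel walls (6 and 59, 3.92), the lysyl oxidase Loxl2 (13 and 48, 2.50), which crosslinks collagen, and Fn1, fibronectin (53 and 114, 1.72), were higher too. Col3a1 had 170 and 149 (0.43). Mfap4, a microfibril-associated protein, went from 170 to 11 UMIs (-3.33), with 54.5% of the latter in 1 cell, and the proteoglycan Ogn from 130 to 13 (-2.70).

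Of 10 basement membrane genes 4 were higher and 3 lower (median -0.02). In the cells restricted by Myh11 and Cnn1 all 8 past the filter were within 2-fold (median -0.13). Col4a1 and Col4a2, the type IV collagen pair, had 53 and 151 UMIs (2.13, 1.67 to 2.61) and 35 and 73 (1.68). Sparc, which binds collagen in the basement membrane, had 448 and 920 (1.66, 1.49 to 1.82), with medians of 12.4 and 35.7 per 10,000. Its relative Sparcl1 moved oppositely, from 600 to 79 UMIs (-2.31), and Timp3, a protease inhibitor bound to matrix, from 221 to 51 (-1.50).

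Of 16 genes of activated mural cells and myofibroblasts, 9 were higher and 3 lower (median 1.18), and without cell 12 it was 6 and 2 of 15. Lgals1, galectin-1, had 524 and 1285 UMIs (1.91), but its CPM also went from 1949 to 3493 in the lymphocyte gate and from 1251 to 2333 in alveolar fibroblasts. Spp1, osteopontin, at 54.7 and 494 CPM in the Acta2-high cells, stood at 43.5 and 652 CPM in the lymphocyte gate, and was thus higher in both. Timp1, a protease inhibitor of injured tissue, had 4 and 79 UMIs (4.92), 12.9 and 390 CPM, beside 0 and 40.9 CPM in the lymphocyte gate. Like Col8a1, Timp1 could pass the filter only through the high-burden cells. Ctgf and Cyr61, both on this list, were lower.

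**Figure D3:**
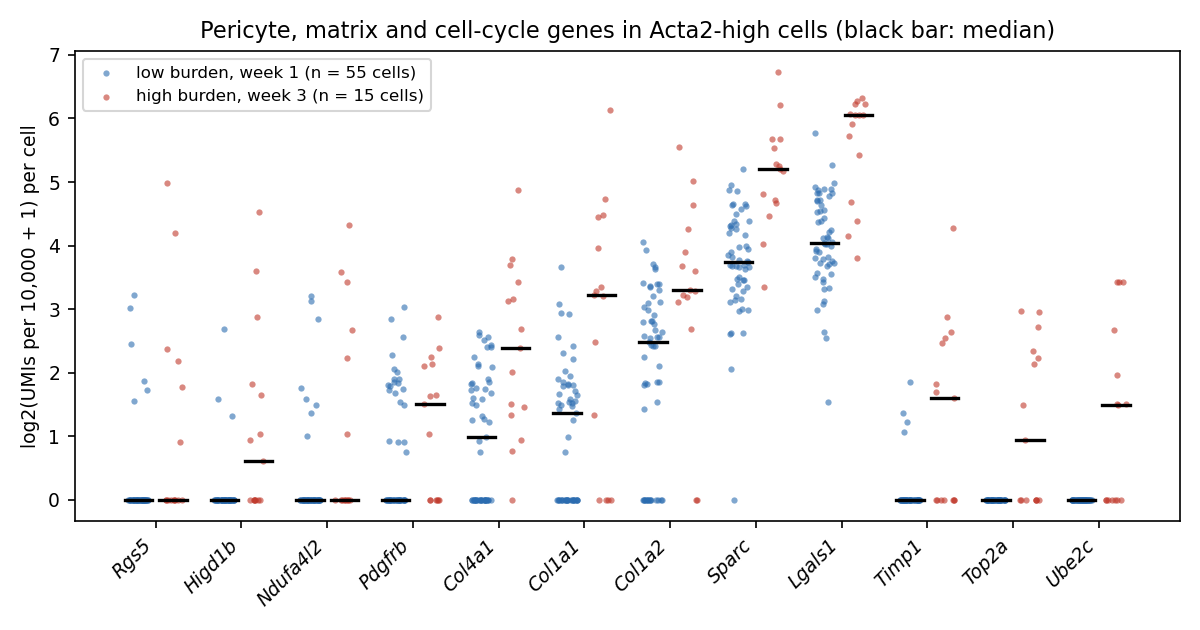
Each point is 1 Acta2-high cell, with log2 of UMIs per 10,000 plus 1 on the y axis for 12 pericyte, matrix and cell-cycle genes on the x axis, and black bars mark medians. Sparc and Lgals1 sit higher in most of the 15 high-burden cells, Rgs5 is at 0 in 9 of them, and Top2a and Ube2c are at 0 in all 55 low-burden cells.

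Of 26 immediate early and stress genes 11 were 2-fold lower and none higher (median -0.64), among them the heat shock gene Hspa1a, whose reads can be shared with its near copy Hspa1b, with 670 and 120 UMIs (-1.86), and Atf3, a stress-induced factor, with 159 and 21 (-2.30). Fos had 542 and 224 (-0.66). Without cell 12, 6 of the 26 were lower and 1 higher. Of 10 hypoxia and glycolysis genes 6 were higher and none lower (median 1.07), including Ldha, lactate dehydrogenase (72 and 218 UMIs, 2.22), and Mif (74 and 156, 1.69). Without cell 12, 5 were higher, and in the cells with at least 10 per 10,000 of Myh11 and Cnn1 the medians of both lists were near 0 (-0.06 for stress, 0.04 for hypoxia and glycolysis), with none of 9 hypoxia and glycolysis genes higher and 2 lower. The lymphocyte gate had 493 and 705 CPM of Ldha, against 232 and 1076 in the Acta2-high cells. How much of the Ldha in either was carried RNA was not tested.

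Of 7 interferon response genes 1 was higher, Ifitm3 (225 and 349 UMIs, 1.25), and 1 lower (median 0.33). Of 4 chemokine and growth factor genes Cxcl1, a neutrophil attractant, was higher (12 and 48 UMIs, 2.62) and 2 were lower (median -0.68).

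Cell-cycle transcripts stood in the high-burden members and hardly in the low-burden ones. Top2a, the topoisomerase of dividing cells, had 0 UMIs in 55 low-burden cells, which allows up to 3 counts, and 64 UMIs in 8 of 15 high-burden cells. All 7 proliferation genes past the filter were higher (median 5.03, with genes at 0 taken at their bound), which the filter favors, since most could pass only through the high-burden cells. Without cell 12, 3 passed, all higher (median 2.16). A set of 19 cell-cycle genes summed to 15 UMIs over all 55 low-burden cells and to 597 over the 15 high-burden cells, 318 of them in cell 12.

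These 19 genes summed to at least 10 per 10,000 in 0 of 55 low-burden and 7 of 15 high-burden cells. At high burden the lymphocyte gate gave 25 of 54 (46.3%, against 46.7%), the alveolar fibroblast gate 5 of 61 (8.20%) and the adventitial fibroblast gate 4 of 28 (14.3%). At low burden the lymphocyte gate gave 13 of 124 (10.5%). Of the 29 high-burden cells with the pericyte sum left out by the endothelial or fibroblast limit, described further on, 0 reached that level. Their highest value was 7.39 per 10,000. Top2a itself was seen in 57.4% of high-burden lymphocyte-gate cells and in 53.3% of the Acta2-high cells, a share no higher than in that gate. Lymphocytes can divide, so for this gene that gate cannot tell carried RNA from the cells' own. The source of the Top2a UMIs in the Acta2-high cells was not tested. Alveolar fibroblasts had Top2a in 24.6% of cells. The 5 cells with 10 or more per 10,000 of Myh11 and Cnn1 ran from 0 to 9.05 per 10,000 for the 19 genes, and the other 10 from 3.55 to 55.7.

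The largest ratios upward were of Birc5, Ccnd1, Ube2c, Cks2 and 2810417H13Rik, all genes of division, of Cd248 and Flt1, a mural and a vascular receptor, and of Hmox1, with 98.7% of its UMIs in 1 cell. A single cell also held 54.4% of Birc5, 60% of Ccnd1, 55.4% of Ube2c, 54.0% of Cks2 and 39.8% of 2810417H13Rik, and cell 12 was that cell for Birc5 (37 of 68 UMIs) and Ube2c (56 of 101). Ube2c, 2810417H13Rik and Hmox1 were at 0 at low burden, so their ratios are lower bounds. Ccnd1, cyclin D1, had 2 and 75 UMIs, Cd248, endosialin, 3 and 72, and Flt1, a VEGF receptor, 3 and 64, each in 8 high-burden cells. These genes could pass the filter only through the high-burden cells, and 50% of the high-burden Cd248 UMIs were in 1 cell. Birc5 also belongs to the carcinoma list below, and the paper used Ccnd1 together with PyMT to identify metastatic tumor cells. The source of the Ccnd1 UMIs in the Acta2-high cells was not tested. The lowest ratios included the club cell genes Scgb3a1, Scgb3a2 and Scgb1a1, with 98.1% of the low-burden Scgb3a1 in 1 cell, and F3, tissue factor, which starts coagulation (91 and 4 UMIs), Limch1, an actomyosin regulator (71 and 3), and Id4 (75 and 4).

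RNA of other classes differed between the libraries too. Of 12 carcinoma markers, 2 had a UMI in the low-burden Acta2-high cells (19.3 CPM summed) and 10 in the high-burden ones (652 CPM), with 2.84 to 10.2 per 10,000 per cell and only Shox2 and 3300005D01Rik at 0. The lymphocyte gate had 107 and 554 CPM. Epithelial markers ran from 13.0 to 2912 per 10,000 at low burden, the highest in 1 cell, and from 9.16 to 25.1 at high burden. Fibroblast markers summed to 1232 and 1985 CPM, the latter with Pdgfra, Col13a1, Ces1d and Lum at 0. Col1a1, given above, is on this list and made up most of the high-burden sum. The other fibroblast markers together were lower at high than at low burden. Endothelial markers summed to 573 and 281 CPM, immune markers to 811 and 1160, red blood cell and platelet markers to 775 and 425, mesothelial markers to 67.5 and 14.8, and glial markers to 9.65 and 0. The part of this RNA in the results was not tested.

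Restricting both libraries to cells with at least 10 per 10,000 of Myh11 and Cnn1 (52 and 5 cells), a choice made after their values were seen, left 972 genes past the filter. Then 26 (2.67%) were 2-fold higher and 118 (12.1%) lower. Of 31 contractile genes 28 were within 2-fold, 1 was higher and 2 lower, and their median was -0.21. Choosing cells on Myh11 and Cnn1 brings other contractile genes together, so part of this follows from the choice. Tpm2 gave -0.03 and Myl9 -0.15, whereas Hspb1 (-2.05), Ctgf (-1.74) and Cyr61 (-1.44) kept lower levels, and Col1a1 turned from 3.20 to -0.49. The latter value is imprecise, since the 5 high-burden cells had only 0 to 3 Col1a1 UMIs each.

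Within the high-burden library, 614 genes compared the 10 cells under that limit with the 5 above it. In the former 142 (23.1%) were 2-fold higher and 48 (7.82%) lower. Col1a1 had 338 UMIs in 9 of 10 cells against 4 in 2 of 5 (3.86, 2.49 to 5.75), and Fabp5, a fatty acid-binding protein, 230 against 3. Sparcl1 had 26 against 53 UMIs (-3.57), Mustn1, a muscle regeneration protein, 103 against 111 (-2.65), and Myl9 173 against 170 (-2.51). The split was made on Myh11 and Cnn1 after their values were seen, so lower contractile genes in the former follow from it and carry no support. Without cell 12, the comparison of the libraries gave 133 genes higher (9.98%) and 221 lower (16.6%) of 1332, with 19 of 31 contractile genes lower, none higher and a median of -1.19.

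**Figure D4:**
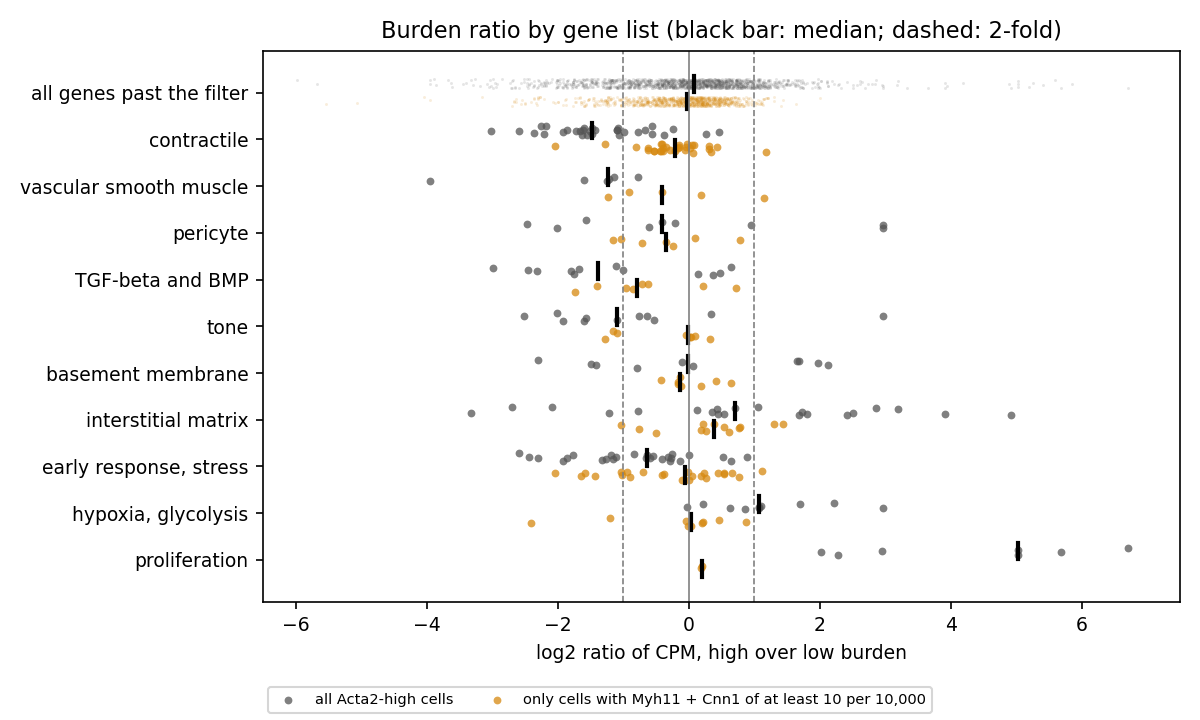
Each point is 1 gene past the filter, placed by its log2 ratio of CPM, high over low burden (x axis), within its list (y axis), with all Acta2-high cells in grey and those with Myh11 and Cnn1 of at least 10 per 10,000 in orange, black bars at medians and dashed lines at 2-fold. The contractile median lies at -1.48 in all cells and at -0.21 in the restricted cells, beside 0.07 and -0.02 for all genes.

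Low-burden Acta2-high cells were not uniform either. The 35 cells with an Actc1 UMI and the 20 without one, a split made after the values were seen, were compared over 921 genes, of which 38 (4.13%) were 2-fold higher with Actc1 and 24 (2.61%) lower. Cells with Actc1 had 60 Notch3 UMIs in 26 cells, against 5 in 3 of the cells without (log2 2.82, 1.52 to 4.50), 114 against 6 of Thbs1, thrombospondin-1 (3.49), 94 against 11 of Rgs2 (2.33) and 512 against 90 of Des (1.75).

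Cells without Actc1 had more of Sost (61 against 10 UMIs, -3.37), of Csrp2, an LIM protein of smooth muscle (326 against 88, -2.65), of Mgp, matrix Gla protein, an inhibitor of calcification (1179 against 498, -2.00), and of Mfap4 (118 against 52, -1.94). Hhip, a Hedgehog-binding protein of airway and alveolar-duct muscle, had 8 UMIs in 2 low-burden cells and 0 in the high-burden cells.

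The 4 cells of the pericyte gate were unlike each other. High-burden cells 16 and 17 had 16 and 28 Rgs5 UMIs, 14 and 21 of Higd1b, 6 and 3 of Kcnj8, a potassium channel of pericytes, and no Myh11. High-burden cell 18 had 8 Cox4i2 UMIs but no Rgs5 or Acta2, and 324 UMIs of Cd74, the invariant chain of antigen-presenting cells. The low-burden cell had 2 Cox4i2, 3 Pdgfrb, 4 Higd1b and 6 Gucy1a3 UMIs beside 1787 of Sftpc, the surfactant protein of alveolar type 2 cells, of 7547 in all. Of these 4, only cells 16 and 17 carried Rgs5 and Kcnj8 together without a dominant gene of another class, and the pericyte name is used for the rule alone.

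Between libraries, 118 genes passed in this gate, of which 71 (60.2%) were 2-fold higher and 10 (8.47%) lower at high burden, 68.6% in all. The ratios mirror single cells, since H2-Ab1 (2 and 144 UMIs) came with cell 18 and Sftpc with the low-burden cell. Acta2-high over pericyte gate, 936 genes at low burden gave 197 (21%) higher and 38 (4.06%) lower, and 686 at high burden gave 124 (18.1%) higher and 34 (4.96%) lower. Rgs5 at high burden had 71 UMIs in the 15 Acta2-high cells and 44 in the 3 pericyte-gate cells, 351 and 1643 CPM.

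More cells with the pericyte sum stood outside the limits than inside. Without an Acta2-high sum and under the carcinoma limit, the limits left out 40 cells at week 1 and 29 at week 3, 20 and 25 by both the endothelial and the fibroblast limit, 13 and 2 by the fibroblast limit alone and 7 and 2 by the endothelial limit alone. They were 1.64% of low-burden and 1.84% of high-burden cells under the carcinoma limit, with intervals that overlapped (1.17 to 2.23% and 1.24 to 2.64%).

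The 13 low-burden cells over the fibroblast limit alone had 164 Cox4i2 UMIs in 11 cells, 80 of Higd1b, 59 of Ndufa4l2, 55 of Gucy1a3, 26 of Notch3 and 132 of Pdzd2, a scaffold protein, each in 11 cells. Cldn5 had 2 UMIs and Cdh5 had 0 there, beside 194 of Inmt and 115 of Clec3b. Rgs5 had 4 UMIs in 3 cells, and Acta2 had 3 in 3. Cox4i2 and Higd1b stood in the sum that chose these cells. Of the genes outside it, Notch3, Ndufa4l2 and Gucy1a3 were found in 11 of 13 cells and Rgs5 in 3.

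The cells over both limits had 244 Cox4i2 UMIs in 20 of 20 low-burden and 278 in 25 of 25 high-burden cells, and 136 and 166 of Higd1b. They also had 376 and 575 UMIs of Cldn5 and 310 and 1108 of Inmt, which the limits select for. Sftpc had 2017 and 2279 UMIs, but the summed epithelial markers had medians of 38.3 and 22.6 per 10,000, beside 40.6 and 24.1 in the lymphocyte gate, with single cells at 498 and 876. Whether these barcodes held more than 1 cell was not tested. Rgs5 had 0 and 1 UMI in them, and Acta2 8 and 4.

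**Figure D5:**
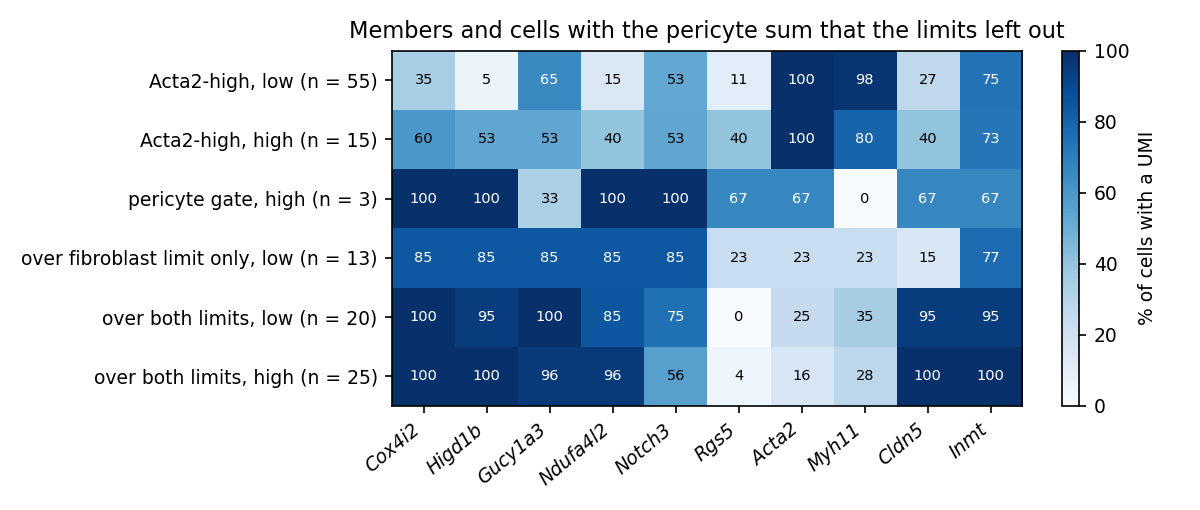
The heat map gives the percent of cells with a UMI (color and printed value) of 10 genes (columns) in 6 sets of cells (rows), from Acta2-high cells to cells over both limits. Cox4i2, Higd1b, Acta2, Myh11, Cldn5 and Inmt entered the rule and are shown as a description, while of the genes it did not use Gucy1a3 was found in 84.6 to 100% and Rgs5 in 0 to 23.1% of the left-out cells shown.

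The libraries were also compared over the left-out cells. Their mix differed, with 20 of 40 low-burden and 25 of 29 high-burden cells over both limits, and it was not held fixed. Of 2229 genes past the filter, 32 (1.44%) were 2-fold higher and 58 (2.6%) lower at high burden. Sparc had 1138 and 1120 UMIs (-0.04, -0.16 to 0.08), Col4a1 188 and 159 (-0.26, -0.57 to 0.06) and Col1a1 70 and 57 (-0.31, -0.84 to 0.21). Of 15 pericyte genes past the filter 4 were lower and none higher (median -0.66), with Gucy1b3 at 236 and 94 UMIs (-1.34, -1.70 to -0.99) and Notch3 at 62 and 33 (-0.92). Gucy1b3 was lower in both the left-out and the Acta2-high cells, each on its own counts. Whether the differences in the left-out cells and in the Acta2-high cells were unequal was not tested.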

How the data were processed

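Lungs of 1 mouse per group were dissociated enzymatically and profiled with 10x Genomics droplets. The authors made the deposited counts, raw UMI counts per gene and cell, with Cell Ranger 2.0.2 on mm10 with the PYMT transgene sequence added, and the submitters' notes also name Seurat. The annotation release is not given in the sources used here. Whether the counts precede the aggregation named in the methods is not stated.

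Groups followed the sample titles. Gates were rebuilt from the counts, so differences from the study's cell types may come from rebuilt names. Counts were summed per gate and library and scaled to CPM (per 1000000 UMIs). Ratios carry exact conditional binomial intervals, levels exact Poisson intervals and shares Clopper-Pearson intervals, at 95%, for counting error only. A count of 0 was set to 3 per summed library. Genes needed 50 UMIs over both groups and a UMI in 10% of the cells of either. UMIs were thinned to 3000 per cell with a fixed seed. Lists of 462 genes, 453 found under a single identifier, were described by counts and medians. Named genes were the rule's genes, list members and the 10 highest and lowest ratios of each comparison. The members and lists were chosen with earlier results of these data known. The ratio step was tested on simulated data. Coordinates came from GENCODE M21 (GRCm38), and promoters from RefSeq, where Tagln, Myh11 and Actg2 had no entry. Python 3.11.15, numpy 2.4.6, scipy 1.17.1 and scanpy 1.11.5 (Scrublet) were used.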

Additional observations from a re-analysis of the deposited data

Results flagged for a closer look

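PYMT, the transgene of the carcinoma cells, was outside the genes of the rule. It had 15 UMIs in 9 of the 15 high-burden Acta2-high cells and 0 in the 55 low-burden ones, 74.1 CPM beside 77.0 in the high-burden lymphocyte gate and 64.4 in all other high-burden cells. Only 1573 of the 3033 kept high-burden cells were under the carcinoma limit, and those over it were all among these other cells. The 64.4 CPM is thus no level free of carcinoma cells. The source of the PYMT UMIs in the Acta2-high cells was not tested.

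Cells with the pericyte sum but no Acta2-high sum were seen in numbers outside the gates, 40 at low and 29 at high burden, where the pericyte gate itself held 1 and 3. Their part in the lung's pericytes was not tested.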

How the results depend on the processing

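No paired analysis was possible because each group holds 1 library and no test was made. Of alternative values for the counts of genes past 2-fold and the shares of cells, 55 stayed within their limits and 23 moved. In the Acta2-high gate the genes higher and lower at high burden were 318 and 418 with the lymphocyte-gate level subtracted, 1528 and 1680 with no filter, 133 higher without the cell with the most UMIs, and 26 and 118 in cells with Myh11 and Cnn1 at the limit. In the pericyte gate 81 genes became 42 with median-of-ratios scaling, 34 after subtraction, 308 with no filter and 148 over every member with the pericyte sum. Between gates, 235 at low burden became 428 after subtraction, 1124 with no filter and 41 over every member with the pericyte sum, and 158 at high burden became 1177 and 42 under the latter pair. The high-burden Acta2-high share was 0.954% under the carcinoma limit. The low-burden pericyte share was 0% with double limits or thinning, 0.445% over every member with the pericyte sum, 0.323% without the endothelial limit and 1.66% without it and the fibroblast limit, where the high-burden share was 1.06%.

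Of the genes named, 14 changed sign, each in cells with Myh11 and Cnn1 at the limit, where the log2 ratios were 0.077 for Lmod1, 0.012 for Ppp1r14a, 0.34 for Mustn1, 0.043 for Dstn, 1.14 for Enpp2, 0.19 for Eln, 1.15 for Aoc3, 0.10 for Gucy1a3, 0.016 for Rgs2, 0.045 for Klf4, -0.49 for Col1a1, 0.27 for Ogn, 0.25 for Igfbp5 and 0.12 for Gas6. The cause was not tested, but 5 high-burden cells remained. The contractile median ran from -1.55 to -0.21 over 11 alternatives. Median-of-ratios scaling moved all ratios by 0.07 in the Acta2-high gate and by 1.17 in the pericyte gate. Leaving out members rich in other classes' RNA was not run, since 0 of 15 high-burden Acta2-high cells remained, against 45 of 55 at low burden. Alternatives on single cells, the pericyte gate and Myh11 and Cnn1 were chosen after seeing the data. With 1 mouse per group, 15 high-burden cells and 28.2% of their UMIs in 1 cell, the precision between mice is unknown.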
